A study of Homo sapiens with 24 samples.

Results

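The 10 genes ANTXR1, MTPN, NCR3LG1, LEPROTL1, ZDHHC5, TTC7B, MEF2C, FBH1, UHMK1 and VTA1 were selected on their read counts, for lower values after an siRNA pool against SREBF1 than after either of a pair of SREBF1 antisense oligonucleotides (ASOs). They are 10 of 58735 genes in the count files, and each was among the 16297 genes that passed a filter on low counts. The cells were HT-144, a human melanoma line established from a metastasis. They were transfected for 3 days, and polyadenylated RNA was sequenced. The siSREBF1 group received the pooled siRNAs at 50 nM, and the groups ASO-SREBF1-S1 and ASO-SREBF1-S4 each received 1 SREBF1 ASO at 5 nM. The controls were siNegative (siRNA at 50 nM), ASO-Neg (ASO at 5 nM) and Mock, which carries a mock label and no oligonucleotide name. Each group was 1 library, sequenced in 4 lanes, so no group had a biological replicate. Reagent chemistry, dose and sequence changed together between siSREBF1 and the ASO groups and cannot be told apart.

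An siRNA guides the Argonaute protein in the cytoplasm to cut messages that pair with it along its length. It can also lower messages that pair only with its seed, the bases near its 5′ end, often within their 3′ untranslated regions (UTRs). ASOs that recruit RNase H are single strands that direct cleavage of a paired RNA, also in the nucleus, and do not use Argonaute. SREBF1 encodes SREBP1, a transcription factor that binds sterol regulatory elements and E-boxes and drives genes of fatty acid synthesis. The list was drawn up as candidate transcripts lowered by the siRNA pool itself. Whether the pool pairs with them was not tested, since the siRNA and ASO sequences were not given in the sources used here.

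SREBF1 was lower in each targeted library than in any control, and lowest in siSREBF1. Its level was 54.9 CPM (read counts per 1000000 of the effective library size) in siSREBF1, 77.1 CPM in ASO-SREBF1-S1 and 70.3 CPM in ASO-SREBF1-S4, against 249.7 CPM in siNegative, 218 CPM in ASO-Neg and 232 CPM in Mock. Relative to the control of its own chemistry, SREBF1 stood at 22.0% in siSREBF1, at 35.4% in ASO-SREBF1-S1 and at 32.3% in ASO-SREBF1-S4. The libraries held 12916478 to 47900277 gene counts, with ASO-SREBF1-S1 the deepest, and a count of 3 was worth 0.0626 to 0.232 CPM. Of 8 melanoma markers, 8 were tested and none was called in any comparison (edgeR, adjusted p under 0.05). Their summed level was 4107 CPM in siSREBF1 and 4046 to 5421 CPM in the SREBF1 ASO libraries, against 4702 to 6132 CPM in the controls. PMEL, at 2047 to 3530 CPM, was the largest part of each sum. MLANA had only 11.9 to 19.9 CPM and MIA 0.648 to 1.79 CPM. Summed levels of 5 immune markers were 0.627 to 2.83 CPM over the 6 libraries, those of 6 keratinocyte markers 23.1 to 29.4 CPM and those of 4 endothelial markers 37.7 to 57.3 CPM. The keratinocyte sums were mostly KRT10, at 21.6 to 28.2 CPM, and the endothelial sums mostly KDR, at 34.6 to 55.7 CPM. KRT1, a keratinocyte marker, was at 0 in every library. The 8 fibroblast markers summed to 786 CPM in siSREBF1 and to 676 and 978 CPM in the ASO libraries, against 712 to 928 CPM in the controls, and none of them was called. Most of that sum was COL1A2, at 675 CPM in siSREBF1 and 559 and 874 CPM in the ASO libraries, against 574 to 798 CPM in the controls.

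The messages were first compared with that of SREBF1, since a reagent made for SREBF1 can pair with bases that another message shares with it. For each gene the longest exact run shared, on the same strand, between its Ensembl canonical transcript and that of SREBF1 (GENCODE release 44, 4901 bases) was found. The runs of the 10 genes had a median of 13 bases. That equals the median of 13 bases over 16214 transcripts of tested genes, whose 5th to 95th percentiles were 10 to 18 bases. VTA1 and ZDHHC5 shared 13 bases inside both coding sequences, a length that 52.3% of genes reach. MTPN shared 12 bases of its coding sequence with the 3′ UTR of SREBF1, a length that 79.3% of genes reach. These 3 pairs are printed because they lie in coding sequence of the gene and hold no repeat. Each is on the sense strand, in capitals where the letters are shared, with 7 bases of each message on either side.
VTA1 (chromosome 6), run from base 891 of the transcript: gatgtaaGCACTGCTGTCCAgaatcta
SREBF1 (chromosome 17), run from base 1332: agtctgcGCACTGCTGTCCAcaaaagc
ZDHHC5 (chromosome 11), run from base 1330: ccaacttCAGCATGGCCACCttcatgg
SREBF1, run from base 2752: tcagttcCAGCATGGCCACCaccaccg
MTPN (chromosome 7), run from base 543: gataagaCTGTGAAAGGCCcagatgg
SREBF1, run from base 4655: tcctgttCTGTGAAAGGCCgactccc
Among the others, ANTXR1 shared 14 bases, FBH1 13, LEPROTL1 12 and NCR3LG1 11. The longest runs, of 19 bases in TTC7B, 18 in UHMK1 and 15 in MEF2C, lay in the 3′ UTRs of both messages. Runs at least as long were found in 4.65%, 7.44% and 18.06% of genes. These 3 runs began at bases 4813, 4810 and 4819 of SREBF1, and their letters are not printed. The 3 transcripts are 19471, 8524 and 7281 bases long, and the part of length in their runs was not tested.

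The promoters were then searched for the letters that SREBP1 is known to bind. RefSeq windows on GRCh38.p14, each from 250 bases before to 50 after an annotated start, gave 19 promoters for 9 of the 10 genes, LEPROTL1 not among them. The sterol regulatory element TCACNCCAC, read on both strands, was in 0 of these 19 windows and in 1.13% of all 35116. The E-box CACGTG was in 0 of the 19 and in 7.26% of all windows. CCAAT, the box read by the factor NF-Y, was in 3 of the 19 windows, 1 each of FBH1, MEF2C and ZDHHC5, and in 34.6% of all. Some genes gave several windows, MEF2C the most, so the 19 are not separate genes. By gene, CCAAT was in 3 of the 9. A match or its absence in these windows says nothing about binding. Below are the windows of FBH1 and ZDHHC5 that hold CCAAT, or ATTGG on the other strand, in capitals, and they were 75.7% and 73.7% G or C.
FBH1, chr10:5889993-5890292, + strand: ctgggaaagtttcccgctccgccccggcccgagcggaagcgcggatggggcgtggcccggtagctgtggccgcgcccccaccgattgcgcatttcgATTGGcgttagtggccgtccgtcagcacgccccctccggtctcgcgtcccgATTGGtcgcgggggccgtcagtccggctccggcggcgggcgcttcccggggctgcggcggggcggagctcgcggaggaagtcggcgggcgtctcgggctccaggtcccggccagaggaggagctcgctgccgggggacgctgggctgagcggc
ZDHHC5, chr11:57667864-57668163, + strand: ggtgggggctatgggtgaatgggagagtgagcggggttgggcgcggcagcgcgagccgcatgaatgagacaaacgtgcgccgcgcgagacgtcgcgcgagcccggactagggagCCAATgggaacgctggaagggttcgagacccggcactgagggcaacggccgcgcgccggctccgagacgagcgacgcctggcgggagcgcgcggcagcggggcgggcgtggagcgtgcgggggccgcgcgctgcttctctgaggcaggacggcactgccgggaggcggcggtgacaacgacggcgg
The windows have no CACGTG or TCACNCCAC on either strand.

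Both cell-surface proteins among the 10 genes stood apart in siSREBF1 alone. ANTXR1 (ENSG00000169604, GRCh38 chromosome 2, 69013176 to 69249327, + strand) encodes a transmembrane receptor that binds collagen and, as an entry point, anthrax toxin. ANTXR1 had 74.55 CPM in siSREBF1, 176.7 CPM in ASO-SREBF1-S1 and 152.8 CPM in ASO-SREBF1-S4, against 168.6 CPM in siNegative, 164.0 CPM in ASO-Neg and 167.2 CPM in Mock. Only the siSREBF1 library was low, and the ASO libraries lay on either side of the narrow control range of 166.6 ± 2.38 CPM (SD, n = 3). NCR3LG1 (ENSG00000188211, chromosome 11, 17351800 to 17377341, + strand) encodes B7-H6, a ligand by which tumour cells engage the NKp30 receptor of natural killer cells. Its levels were 38.8 CPM in siSREBF1, 87.1 CPM in ASO-SREBF1-S1 and 73.95 CPM in ASO-SREBF1-S4, against 78.3 CPM in siNegative, 92.6 CPM in ASO-Neg and 82.3 CPM in Mock. Here ASO-SREBF1-S4 was the next lowest library, and the siSREBF1 level was 46.0% of the control mean.

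LEPROTL1, ZDHHC5, TTC7B and VTA1 work at membranes, and relative to the controls they held both the largest difference of the group (TTC7B) and the smallest (VTA1). LEPROTL1 (ENSG00000104660, chromosome 8, 30095408 to 30177208, + strand) encodes a small endosomal membrane protein related to LEPROT, which limits how much leptin and growth hormone receptor reaches the surface. LEPROTL1 had 21.4 CPM in siSREBF1, 43.6 CPM in ASO-SREBF1-S1 and 43.55 CPM in ASO-SREBF1-S4, against 39.55 CPM in siNegative, 43.5 CPM in ASO-Neg and 40.9 CPM in Mock. The ASO libraries were the highest, by little. ZDHHC5 (ENSG00000156599, chromosome 11, 57667747 to 57701182, + strand) encodes a palmitoyltransferase of the plasma membrane, an enzyme that attaches fatty acyl chains to proteins. Its levels were 66.6 CPM in siSREBF1, 140.6 CPM in ASO-SREBF1-S1 and 129 CPM in ASO-SREBF1-S4, against 118 CPM in siNegative, 132 CPM in ASO-Neg and 126 CPM in Mock.

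TTC7B (ENSG00000165914, chromosome 14, 90524564 to 90816479, - strand) encodes a scaffold that holds the lipid kinase PI4KA at the plasma membrane. TTC7B had 17.1 CPM in siSREBF1, 34.9 CPM in ASO-SREBF1-S1 and 32.8 CPM in ASO-SREBF1-S4, against 41.6 CPM in siNegative, 40.7 CPM in ASO-Neg and 42.98 CPM in Mock. It was the gene with the lowest siSREBF1 level relative to controls, 40.8% of the control mean, and also the gene whose ASO libraries averaged lowest, 81.05% of that mean. VTA1 (ENSG00000009844, chromosome 6, 142147162 to 142224685, + strand) encodes a cofactor of the VPS4 ATPase, which takes apart ESCRT-III filaments after membrane scission. VTA1 had 37.4 CPM in siSREBF1, 68.2 CPM in ASO-SREBF1-S1 and 65.2 CPM in ASO-SREBF1-S4, against 60.2 CPM in siNegative, 60.6 CPM in ASO-Neg and 62.9 CPM in Mock. With 61.05% of the control mean in siSREBF1, it was the least reduced of the 10, and both its ASO libraries lay above the 3 controls.

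MTPN is the cytoskeletal member and the most abundant. MTPN (ENSG00000105887, chromosome 7, 135926760 to 135977359, - strand) encodes myotrophin, which binds the capping protein of actin filaments and keeps it off their growing ends. It had 203.5 CPM in siSREBF1, 419.7 CPM in ASO-SREBF1-S1 and 428 CPM in ASO-SREBF1-S4, against 397 CPM in siNegative, 421 CPM in ASO-Neg and 393 CPM in Mock. The siSREBF1 level was 50.4% of the control mean, and the libraries apart from siSREBF1 were close together.

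MEF2C, FBH1 and UHMK1 encode nuclear proteins. MEF2C (ENSG00000081189, chromosome 5, 88717117 to 88904257, - strand) is a MADS-box transcription factor best known from muscle, neural crest and brain. MEF2C had 24.6 CPM in siSREBF1, 48.9 CPM in ASO-SREBF1-S1 and 48.2 CPM in ASO-SREBF1-S4, against 47.65 CPM in siNegative, 49.4 CPM in ASO-Neg and 43.8 CPM in Mock. Both ASO libraries fell inside the control range, which no other gene of the 10 showed. FBH1 (ENSG00000134452, chromosome 10, 5890203 to 5937594, + strand) is a DNA helicase with an F-box that restrains homologous recombination. Its levels were 38.2 CPM in siSREBF1, 77.2 CPM in ASO-SREBF1-S1 and 73.2 CPM in ASO-SREBF1-S4, against 78.8 CPM in siNegative, 76.8 CPM in ASO-Neg and 78.9 CPM in Mock. UHMK1 (ENSG00000152332, chromosome 1, 162497251 to 162529631, + strand) is a kinase of the splicing factor SF1 and of the cell cycle inhibitor p27. UHMK1 had 141.4 CPM in siSREBF1, 276 CPM in ASO-SREBF1-S1 and 262 CPM in ASO-SREBF1-S4, against 256 CPM in siNegative, 274 CPM in ASO-Neg and 239.8 CPM in Mock. The 3 nuclear genes had siSREBF1 levels of 48.9% (FBH1), 52.35% (MEF2C) and 55.1% (UHMK1) of their control means.

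**Figure D1:**
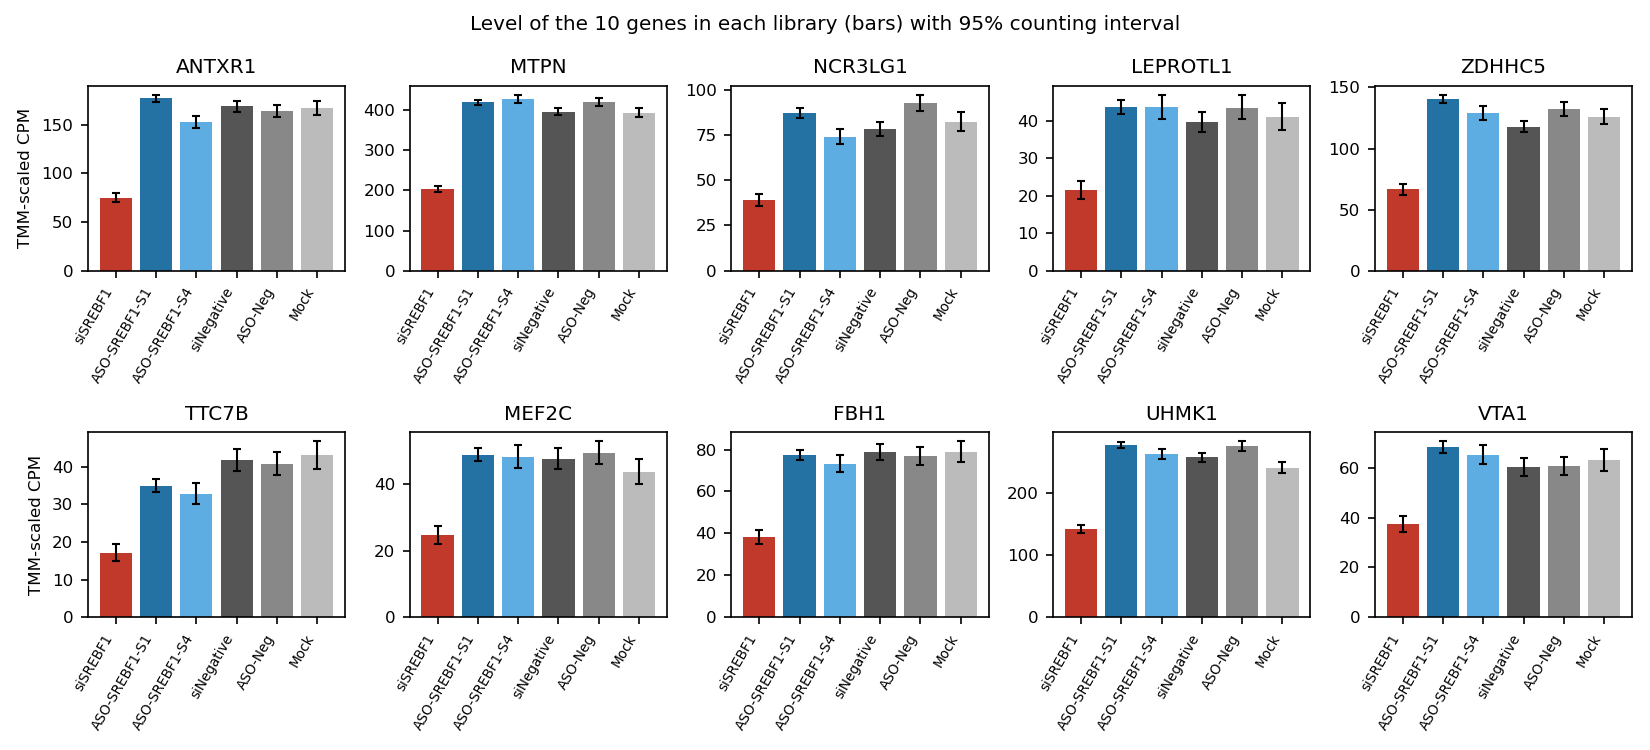
Level of each of the 10 genes in TMM-scaled CPM (vertical axes, from 0) in the 6 libraries (horizontal axes), 1 bar per library with its 95% counting interval. The siSREBF1 bar, at 17.1 to 203.5 CPM, is the lowest of the 6 in every panel, and the other 5 bars differ by a factor of 1.08 (FBH1) to 1.31 (TTC7B) from lowest to highest.

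The 10 genes therefore shared a shape with 1 low library and 5 similar ones. The siSREBF1 level was 40.8% to 61.05% of the control mean, with a median of 51.1%. In each gene a gap separated siSREBF1 from the next lowest library, whose level was 1.61 (VTA1) to 2.05 (ANTXR1) times that of siSREBF1. Among the other 5 libraries the highest over the lowest had a median of 1.14, and the gap exceeded the spread of those libraries in each gene. The contrast that chose the genes took its spread from those 5 libraries, so the choice itself favoured a gap above that spread. The next lowest library was ASO-SREBF1-S4 in 4 genes, siNegative in 3 and Mock in 3. The highest was ASO-SREBF1-S1 in 5 genes, ASO-SREBF1-S4 in 1, ASO-Neg in 2 and Mock in 2. Being lowest in siSREBF1 held for 10 of 10 genes, against 18.6% of all genes tested, and 30.7% of tested genes were under each control. The choice of members fixed the order against the ASO libraries, but not against the controls. Of the 5313 tested genes (32.6%) that were under both ASO libraries in siSREBF1, 57.2% were also under each control.

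Levels per kilobase of exon let the genes be ranked against each other. On that scale the mean over the 6 libraries was 99.7 CPM per kb for MTPN, 26.1 for UHMK1 and 21.9 for ZDHHC5. NCR3LG1 averaged 11.9 CPM per kb, FBH1 10.6, ANTXR1 8.42, VTA1 8.14 and LEPROTL1 7.16. MEF2C, with 3.72 CPM per kb, and TTC7B, with 1.65, were the lowest. The ranks depend on the exon length used, which took in every annotated exon of a gene. For ANTXR1 that was 17891 bases, against 5858 bases in its canonical transcript. Per-kilobase levels were not compared with those of all genes tested, so no member is called scarce. Without the division by length, the means over the 6 libraries lay between 35.0 CPM (TTC7B) and 377 CPM (MTPN). The reduction therefore spanned a range of levels within the list. In siSREBF1 the counts behind these levels ran between 229 for TTC7B and 2732 for MTPN.

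The ratio to the siRNA control of the same chemistry and dose was below 0 on the log2 scale in all 10 genes. For siSREBF1 over siNegative the log2 ratios were between -1.28 (TTC7B) and -0.69 (VTA1), with a median of -0.96, and every 95% counting interval lay below 0. The median over all genes tested was 0.00 and their 5th to 95th percentiles were -0.62 to 0.68. Levels at least 2-fold lower in siSREBF1 than in siNegative were seen for 4 of the 10, ANTXR1, NCR3LG1, TTC7B and FBH1, against 0.129% of all genes tested. Each ratio compares 1 library with 1 library, so it has no replicate check. The siSREBF1 library chose the members, and these ratios describe them.

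The SREBF1 ASOs gave ratios near 0 for the same genes. For ASO-SREBF1-S1 over ASO-Neg the log2 ratios had a median of 0.01 between -0.22 (TTC7B) and 0.17 (VTA1). Intervals lay below 0 in 2 genes and above 0 in 3. For ASO-SREBF1-S4 over ASO-Neg the median was -0.05, between -0.32 (NCR3LG1) and 0.10 (VTA1), with 4 intervals below 0 and 0 above. None of the 10 was at least 2-fold lower in either pair, against 0.196% of tested genes at least 2-fold lower in ASO-SREBF1-S1 and, for the other ASO, 0.166%. Of the 20 ASO values, 7 fell inside the range of the 3 controls, 8 above it and 5 below it. TTC7B was below that range in both ASO libraries, and LEPROTL1 and VTA1 were above it in both. Both ASO pairs share the ASO-Neg library. The ASO libraries took part in choosing the genes, so these ratios describe them.

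The choosing contrast did not compare siSREBF1 with the controls, but its fit took part of its spread from them. Small differences between the controls were thus favoured by the choice and are a description. The log2 ratios between the controls lay between -0.24 and 0.19 in the 10 genes. The log2 ratio of siNegative over Mock was between -0.09 (ZDHHC5) and 0.12 (MEF2C), with a median of -0.02 and a counting interval above 0 only in UHMK1. For ASO-Neg over Mock it was between -0.08 (TTC7B) and 0.19 (UHMK1), with a median of 0.08 and 4 intervals above 0. For siNegative over ASO-Neg it was between -0.24 (NCR3LG1) and 0.04 (ANTXR1), with a median of -0.07 and 4 intervals below 0. The non-targeting siRNA at 50 nM thus left 0 of the 10 genes at least 2-fold lower than Mock, against 0% of all genes tested. For ASO-Neg over Mock it was also 0 of the 10, against 0.0491%. These pairs also had 1 library a side and carry no test.

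**Figure D2:**
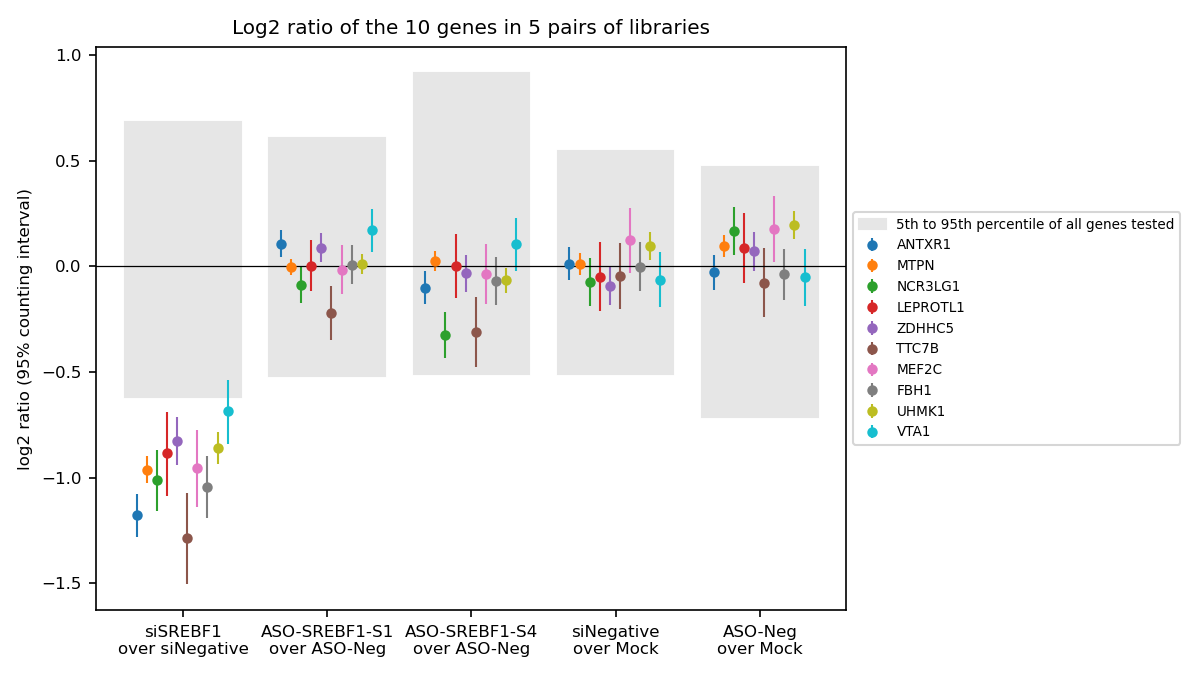
Log2 ratio (vertical axis) of the 10 genes in 5 pairs of libraries (horizontal axis), 1 coloured point per gene with its 95% counting interval, over a grey box for the 5th to 95th percentile of all genes tested. The points of siSREBF1 over siNegative lie between -1.28 and -0.69, under the lower edge of their grey box at -0.62, and those of the other pairs lie between -0.32 and 0.19, inside the boxes.

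A fit over all 6 libraries placed siSREBF1 (1 library), the ASO pair (2 libraries) and the controls (3 libraries) as separate classes, with edgeR's quasi-likelihood test and an adjusted p threshold of 0.05. The siSREBF1 class is 1 library, so every SE and p of its contrasts takes its spread from the ASO and control libraries and assumes that siSREBF1 varies like them. In siSREBF1 over controls the log2 ratio was -1.29 with an SE of 0.12 for TTC7B, -1.16 (SE 0.11) for ANTXR1 and -1.12 (SE 0.14) for NCR3LG1. FBH1 stood at -1.03 (SE 0.10), MTPN at -0.99 (SE 0.10), LEPROTL1 at -0.95 (SE 0.11) and MEF2C at -0.94 (SE 0.12). Smaller ratios were found for ZDHHC5, -0.91 (SE 0.11), UHMK1, -0.86 (SE 0.11), and VTA1, -0.71 (SE 0.10). The median of the 10 was -0.97, beside 0.00 for all genes tested. All 10 were called lower, where 0.27% of tested genes were, but the same siSREBF1 library chose them and no p is given for them. Without siNegative, without ASO-Neg or without Mock, 0 of the 10 were called, while their log2 ratios stayed between -1.31 and -0.70. Without either ASO library all 10 were called.

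In the ASO pair over controls the same genes had log2 ratios between -0.30 (SE 0.08) for TTC7B and 0.12 (SE 0.07) for VTA1, with a median of 0.06. None was called by edgeR, where 0.043% of tested genes were called lower. DESeq2 also called none of them, and called 174 of all 16297 genes tested. TTC7B alone was under 0.05 before adjustment (edgeR), which was also true of 11.2% of all genes tested, so it is not set apart by that. SREBF1 stood lower in siSREBF1 than in the ASO libraries, so the depth of its depletion also differed between the classes, and its part in these genes' levels was not tested.

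**Figure D3:**
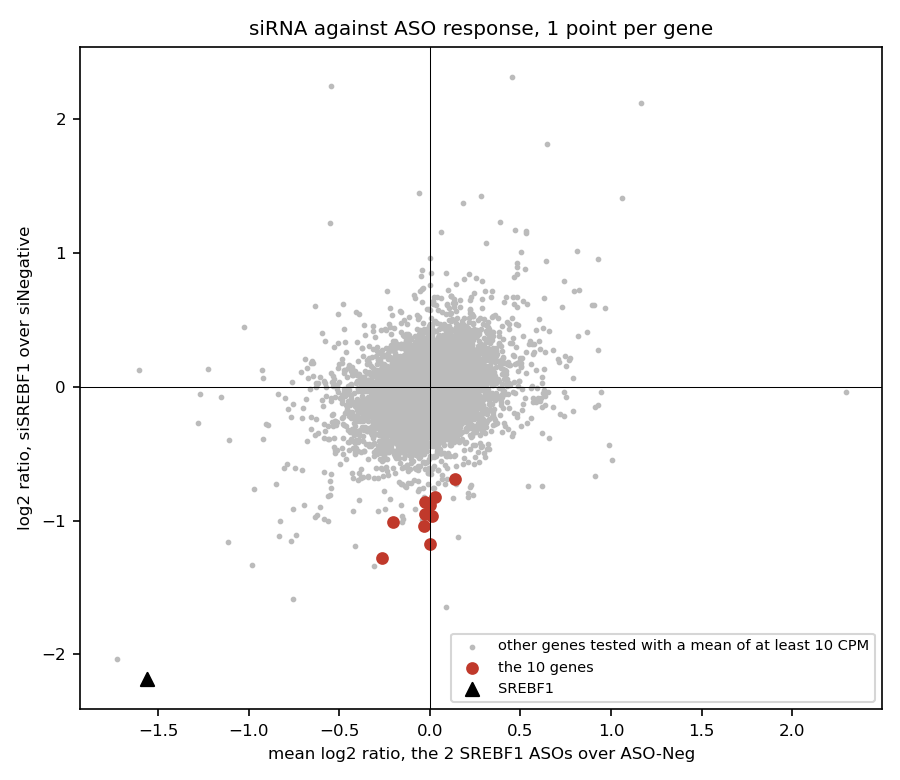
Log2 ratio of siSREBF1 over siNegative (vertical axis) against the mean log2 ratio of the pair of SREBF1 ASOs over ASO-Neg (horizontal axis), 1 point per tested gene that averaged at least 10 CPM. The 10 genes (red) lie between -1.28 and -0.69 on the vertical axis and between -0.27 and 0.14 on the horizontal one, while SREBF1 (triangle) lies at -2.18 and -1.56.

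The contrast that chose the genes, siSREBF1 over the ASO pair, called 15 genes lower, 0.092% of those tested, and the 10 genes are among them by choice. Their log2 ratios ran between -1.15 (ANTXR1) and -0.84 (VTA1) with a median of -1.01. The 5 called genes that are not in the list were ATP6V1D, MARCHF7, HLA-DMA, TMEM123 and PACSIN2, with log2 ratios of -1.85, -0.85, -1.08, -0.80 and -0.85. ATP6V1D, which encodes part of the vacuolar proton pump, had the largest difference of the 15, with 21.2 CPM in siSREBF1, 77.35 CPM in ASO-SREBF1-S1 and 75.2 CPM in ASO-SREBF1-S4, against 66.4 CPM in siNegative, 71.65 CPM in ASO-Neg and 66.5 CPM in Mock. HLA-DMA, a chaperone of class II antigen loading, was the only one of the 15 not also called in siSREBF1 over controls.

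The threshold passed through a dense run of genes. Just inside it were TMEM123 (log2 ratio -0.80), PACSIN2 (-0.85) and, last, NCR3LG1 (-1.06). Just outside were PIGS (-0.92), MCAM (-0.86) and MMP2 (-0.89). MCAM, a melanoma adhesion molecule, had 95.9 CPM in siSREBF1, 184 CPM in ASO-SREBF1-S1 and 163 CPM in ASO-SREBF1-S4, against 141.7 CPM in siNegative, 144 CPM in ASO-Neg and 159.5 CPM in Mock. PIGS, a subunit of the enzyme that attaches GPI anchors, had 95.3 CPM in siSREBF1, 166 CPM in ASO-SREBF1-S1 and 194 CPM in ASO-SREBF1-S4, against 199 CPM in siNegative, 184 CPM in ASO-Neg and 179 CPM in Mock. Genes with a similar low siSREBF1 level were thus left out by a small margin.

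To place the shape among other genes, each profile of log2 CPM over the 6 libraries was centred on its own mean. The median profile of the 10 was -0.83 in siSREBF1, with 0.22 in ASO-SREBF1-S1 and with a value of 0.16 in ASO-SREBF1-S4, against 0.12 in siNegative, 0.20 in ASO-Neg and 0.12 in Mock. Among 9671 genes that averaged at least 10 CPM, the nearest to it by Euclidean distance outside the list were TMEM123 (0.20), PRDX6 (0.24), COQ5 (0.24), GTF2E1 (0.26) and PHLPP2 (0.26). The 10 genes themselves lay at 0.07 (LEPROTL1) to 0.43 (TTC7B), and TTC7B ranked 52. PRDX6, a peroxiredoxin, had 177 CPM in siSREBF1, 332 CPM in ASO-SREBF1-S1 and 282.5 CPM in ASO-SREBF1-S4, against 314 CPM in siNegative, 313 CPM in ASO-Neg and 296 CPM in Mock. COQ5, a methyltransferase of coenzyme Q synthesis, had 22.9 CPM in siSREBF1, 38.55 CPM in ASO-SREBF1-S1 and 39.9 CPM in ASO-SREBF1-S4, against 38.6 CPM in siNegative, 40.3 CPM in ASO-Neg and 36.4 CPM in Mock. A profile over 6 libraries with 1 low point can be matched by many genes, and likeness here is a description.

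Genes known to work with the 10 were examined as lists, and most of them were not called, which was also true of all genes tested. Of 126 partner genes in 10 lists, 117 were tested, and in siSREBF1 over controls 1 was lower and 2 were higher at an adjusted p under 0.05 (edgeR), while 0.27% and 0.129% of all genes tested were lower and higher. The median log2 ratio of the 117 was -0.01, and 13 were under 0.05 before adjustment, against 9.7% of all genes tested. In siSREBF1 over the ASO pair 0 were lower and 1 was higher (0.0552% of all genes), with 15 under 0.05 before adjustment (8.71% of all genes). In the ASO pair over controls edgeR called 0, with 13 under 0.05 before adjustment (11.2% of all genes), and DESeq2 called 1, NR4A1, with a log2 ratio of 0.53. DESeq2 called the same 3 partners as edgeR in siSREBF1 over controls, and 3 lower and 2 higher in siSREBF1 over the ASO pair.

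Among 8 receptor and matrix partners of ANTXR1, MMP2 was called lower in the 1 siSREBF1 library and the other 7 were not called. MMP2, a gelatinase that cleaves basement membrane collagen, had 25.8 CPM in siSREBF1, 46.5 CPM in ASO-SREBF1-S1 and 48.8 CPM in ASO-SREBF1-S4, against 45.9 CPM in siNegative, 43.6 CPM in ASO-Neg and 50.7 CPM in Mock. Its log2 ratio over controls was -0.86 (SE 0.12, edgeR adjusted p = 0.0319). MMP14, which activates MMP2, was at 830.3 CPM in siSREBF1 and 966 and 839 CPM in the ASO libraries, against 1079, 1015 and 1106 CPM in siNegative, ASO-Neg and Mock, and was not called.

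The 2 partners called higher in siSREBF1 over controls belong to the palmitoylation list of ZDHHC5, in which 25 of 27 genes were tested. ABHD17C, a depalmitoylase that removes fatty acyl chains from proteins, had 148.6 CPM in siSREBF1, 81.97 CPM in ASO-SREBF1-S1 and 86.3 CPM in ASO-SREBF1-S4, against 82.55 CPM in siNegative, 83.6 CPM in ASO-Neg and 84.85 CPM in Mock. With 1 siSREBF1 library, the log2 ratio of ABHD17C was 0.83 over controls (SE 0.09, edgeR adjusted p = 0.00867) and 0.82 over the ASO pair (SE 0.09, edgeR adjusted p = 0.0236). GOLGA7B, an accessory protein that binds ZDHHC5 and steadies it at the plasma membrane, had 44.6 CPM in siSREBF1, 24.9 CPM in ASO-SREBF1-S1 and 28.1 CPM in ASO-SREBF1-S4, against 27.2 CPM in siNegative, 27.5 CPM in ASO-Neg and 28.15 CPM in Mock. Its log2 ratio was 0.69 over controls (SE 0.11, edgeR adjusted p = 0.0496), just inside the threshold, and 0.76 over the ASO pair (SE 0.12, edgeR adjusted p = 0.0585). The siSREBF1 library thus lay above the other 5 for both genes and below them for ZDHHC5. All 3 calls, MMP2, ABHD17C and GOLGA7B, were lost without any 1 of the control libraries, with log2 ratios between -0.90 and -0.80, between 0.81 and 0.83 and between 0.68 and 0.70. The GOLGA7B call was also lost with the unstranded counts and without lane 1 or lane 4.

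The other 8 lists had 0 calls in siSREBF1 over controls. Of 15 tested ESCRT-III partners of VTA1, the smallest p belonged to CHMP2B, an ESCRT-III subunit, with 48.8 CPM in siSREBF1, 67.5 CPM in ASO-SREBF1-S1 and 69.2 CPM in ASO-SREBF1-S4, against 64.1 CPM in siNegative, 63.8 CPM in ASO-Neg and 71.4 CPM in Mock. Its log2 ratio was -0.44 (SE 0.11, edgeR adjusted p = 0.176). Of 12 actin capping partners of MTPN, CAPG had a log2 ratio of -0.50 (SE 0.13) and TWF1 of 0.30 (SE 0.09). For TTC7B, the paralog TTC7A stood at 0.40 (SE 0.15) and the kinase PI4KA at -0.16 (SE 0.10) among 10 genes.

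MEF2D, a relative of MEF2C, had a log2 ratio of -0.27 (SE 0.12) and the MEF2 kinase MAPK7 of 0.29 (SE 0.15), among 11 tested genes. Over the ASO pair, DESeq2 called HDAC9, a MEF2 corepressor, and NR4A1, a MEF2 target, lower, with log2 ratios of -0.97 and -0.83. The edgeR test did not call them there, with adjusted p = 0.225 for HDAC9 and adjusted p = 0.173 for NR4A1. For both genes each ASO library lay above the 3 controls, and siSREBF1 lay below them. HDAC9 had 10.9 CPM in siSREBF1, 24.6 CPM in ASO-SREBF1-S1 and 17.7 CPM in ASO-SREBF1-S4, against 13.2 to 16.6 CPM in the controls. NR4A1 had 67.4, 138.8 and 100.8 CPM in that order, against 77.6 to 85.7 CPM. Over controls the siSREBF1 log2 ratios were smaller, -0.43 for HDAC9 and -0.29 for NR4A1. In the natural killer ligand list of NCR3LG1, where 10 of 14 genes were tested, MICB stood at 0.56 (SE 0.21) and RAET1E at 0.78 (SE 0.51). For UHMK1, its substrate CDKN1B (p27) stood at 0.25 (SE 0.12) and RBM39 at 0.18 (SE 0.09), among 9 genes. In the recombination list of FBH1, SKP1 of its ubiquitin ligase stood at 0.22 (SE 0.09) and EME1 at -0.26 (SE 0.12), among 14 tested genes. For LEPROTL1, the receptors GHR and LEPR stood at 0.12 (SE 0.16) and -0.22 (SE 0.43), among 3 genes.

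**Figure D4:**
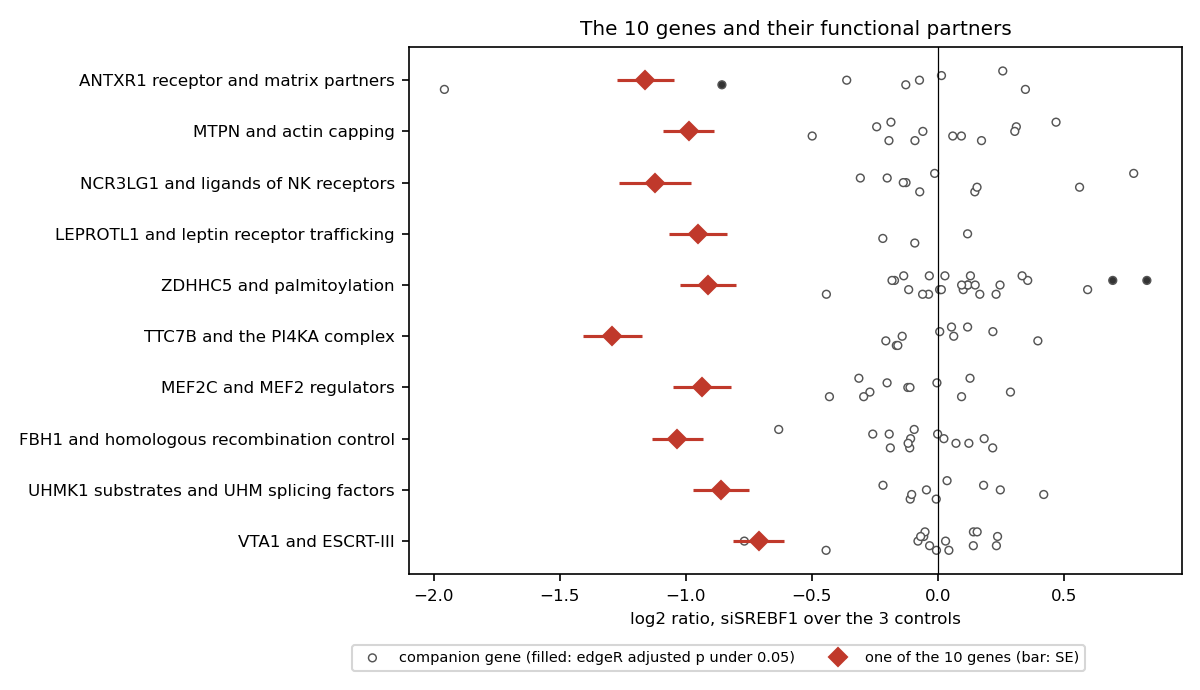
Log2 ratio of siSREBF1 over the 3 controls (horizontal axis) for each of the 10 genes (red diamond with SE) and its list of partner genes (circles, filled at an edgeR adjusted p under 0.05), 1 row per gene. The diamonds lie between -1.29 and -0.71, and the 3 filled circles are MMP2 at -0.86, GOLGA7B at 0.69 and ABHD17C at 0.83. The open circle at -1.96 is COL6A3, which had under 1 CPM in every library.

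In the annotation the 10 genes tended to have long 3′ UTRs. Of the 10, 8 had a 3′ UTR longer than the median of 13138 tested protein-coding genes, and their median was 4338.5 bases, against 1373 bases for all. TTC7B had the longest at 16807 bases, at percentile 99.8, followed by UHMK1 with 7084, VTA1 with 6045 and MEF2C with 5490 bases. NCR3LG1 had 4832 bases, ANTXR1 3845, MTPN 3169 and LEPROTL1 2665. The exceptions were ZDHHC5 with 1154 bases, at percentile 44.4, and FBH1 with 316 bases, at percentile 14.5. Longer messages give more reads and pass a threshold more easily, and the part of that in these lengths was not tested.

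Few reads at these genes lay on the opposite strand. Reads that mapped to several places or to overlapping genes were not counted, and their number for each gene is not known. The opposite-strand column held 0.432% to 3.83% of the reads of a gene's both strands over the 60 values, beside 6.47% to 7.79% for whole libraries. LEPROTL1 overlaps DCTN6 on the same strand, and DCTN6 had 15.1 CPM in siSREBF1, 15.4 CPM in ASO-SREBF1-S1 and 15.2 CPM in ASO-SREBF1-S4, against 12.8 CPM in siNegative, 13.4 CPM in ASO-Neg and 13.0 CPM in Mock. DCTN6 thus did not share the low siSREBF1 value. Antisense genes at these loci had at most 0.863 CPM in any library.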

How the data were processed

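The authors deposited raw read counts (whole numbers) by gene for every lane, counted without strand and on either strand. Reads were aligned with STAR 2.6.1a to GRCh38, per the submitters' processing notes, and strand-specific libraries were read from both ends at 75 bp, per the labels' protocols. The annotation used for counting is not given in the sources used here. The 4 summary lines of each file name no gene and were dropped, so 80.65% to 81.82% of read pairs were used. The reverse-strand column was taken. Lanes of 1 library had a chi-square of 1.01 to 1.07 per degree of freedom (36 pairs), against 2.12 to 9.44 between libraries, and the 4 lanes were summed.

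Of the gene identifiers, 58207 matched GENCODE release 44, with 99.93% of counts. Tests used edgeR 4.0.16 in R 4.3.3 (TMM, filterByExpr, 2-sided quasi-likelihood F test, Benjamini-Hochberg adjustment over 16297 genes). The fit had 3 classes and 3 residual degrees of freedom. Libraries within a class differ in reagent, so p-values reflect that spread too. Ratios of 1 library over 1 library are log2 ratios with a prior count of 2, an exact binomial 95% interval that covers counting error only, and a size rule of 2-fold with 10 CPM. Alternatives were DESeq2 1.42.0 and its size factors, no filter, the unstranded column, a prior count of 0.5, and leaving out each lane or library.

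The 10 genes and the partner lists were chosen with earlier results of these data known. The genes named were the 10, SREBF1, those nearest the threshold (3 a side), the 5 nearest profiles, and from each list the called genes or else up to 2 with the smallest p. ATP6V1D, MARCHF7, HLA-DMA, MMP14, NR4A1, HDAC9, COL6A3, DCTN6, COL1A2, KRT10, KDR, PMEL, MLANA and MIA were added after their values were seen.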

Additional observations from a re-analysis of the deposited data

Results flagged for a closer look

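LEPROTL1 and VTA1 were the genes with a log2 ratio below 0 in siSREBF1 and above 0 in both SREBF1 ASO libraries, each over its chemistry's control. In LEPROTL1 the ASO ratios were so close to 0 that only their sign differed. LEPROTL1 had a log2 ratio of -0.88 in siSREBF1 over siNegative, against 0.0028 in ASO-SREBF1-S1 and, over the same ASO-Neg library, 0.002 in ASO-SREBF1-S4, and the counting intervals of both ASO ratios held 0. VTA1 had a log2 ratio of -0.69 in siSREBF1 over siNegative, against 0.17 in ASO-SREBF1-S1 and, again over ASO-Neg, 0.10 in ASO-SREBF1-S4. The counting interval of VTA1 in ASO-SREBF1-S4, -0.02 to 0.23, also held 0. Neither difference was tested, since each ratio rests on 1 library a side, and the genes were chosen for a low siSREBF1 level. No lane stood apart from the other 3 of its library in the 60 sets of 4 lanes.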

How the results depend on the processing

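The 10 genes were lowest in siSREBF1 under every size factor, counting column and left-out lane that was run. Over the same settings and the other prior count, their median log2 ratio of siSREBF1 over siNegative was -0.98 to -0.94. The medians of the other 4 pairs were between -0.08 and 0.09, and those of ASO-SREBF1-S1 over ASO-Neg (-0.0066 to 0.024) and siNegative over Mock (-0.039 to 0.00854) changed sign near 0. Counts of called genes depended on the fit. For siSREBF1 over the ASO pair, siSREBF1 over controls and the ASO pair over controls, edgeR called 24, 65 and 7 genes. Without the low-count filter it called 380, 458 and 563, and DESeq2 called 124, 197 and 174. Leaving out a lane gave 31 to 42, 56 to 80 and 10 to 46. Leaving out a library gave 2 to 890, 3 to 585 and 1 to 955. Without siNegative, ASO-Neg or Mock the counts were 3, 2 and 2 for siSREBF1 over the ASO pair, 3 each over controls and 1 each for the ASO pair over controls. Without ASO-SREBF1-S1 they were 395, 580 and 955, and without ASO-SREBF1-S4 890, 585 and 868. A lone ASO library then takes its spread from the 3 controls. In both siSREBF1 contrasts the number of the 10 genes called was 10, 0 without any 1 control library, and 10 without either ASO library. All 10 log2 ratios stayed below 0 in each of these fits, which the choice of the genes favoured. Without lane 2, MEF2C lost its call in siSREBF1 over the ASO pair, leaving 9.

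No paired analysis was possible because the replicate numbers in the labels are lanes of 1 library. Depth limits TTC7B most, with 229 counts in siSREBF1. With 1 library per group, culture-to-culture variation was not measured.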
